A study of Mus musculus with 6 samples.

Results

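The 10 MHC class II presentation genes described here were found by their symbols among the 33456 genes counted in each sample: H2-Aa, H2-Ab1, H2-Eb1, H2-DMa, H2-DMb1, H2-DMb2, Cd74, Ciita, H2-Oa and H2-Ob. Their transcripts were counted in single cells of mouse visceral (epididymal) fat, sorted for the leukocyte antigen CD45 and the myeloid integrin CD11b. There were 3 samples of the HFD (high-fat diet) group and 3 samples of the control diet group. Strain, age and feeding time are not given in the sources used here, and neither genotype nor any agent other than the diet is named. Nothing in the labels ties a sample to a separate animal, so the p-values below cover only how these 6 samples vary, and that variation may be technical.

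MHC class II molecules carry peptides from endocytosed protein to the cell surface, where CD4+ T cells read them. H2-Aa pairs with H2-Ab1, and H2-Eb1 is the beta chain of the H2-E molecule. Cd74, the invariant chain, occupies the groove until H2-DM exchanges its last fragment for peptide, and H2-DO restrains H2-DM. Ciita is the coactivator that switches the class II genes on. Dendritic cells are specialised for this pathway, and macrophages use it to varying degrees.

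Cells entered 1 of 2 gates by genes that are not among the 10. Macrophages had at least 20 unique molecular identifiers (UMIs, each 1 counted transcript) of the complement genes C1qa, C1qb and C1qc together. Dendritic cells had at least 3 UMIs of Cd209a and fewer than 20 of the C1q genes. The HFD samples gave 10, 2 and 7 dendritic cells and the control samples 46, 24 and 29. Macrophages numbered 323, 199 and 251 in HFD and 250, 120 and 183 in control. The summed level of 7 macrophage markers was 1751 to 2804 CPM (UMI counts scaled to a common total) in HFD and 1798 to 2125 CPM in control dendritic cells, against 17221 to 19862 CPM in HFD and 13443 to 15742 CPM in control macrophages. The summed level of 8 markers of type 2 dendritic cells was 1015 to 1683 CPM in HFD and 1130 to 1189 CPM in control dendritic cells, against 374 to 395 CPM in HFD and 654 to 755 CPM in control macrophages. Both gates therefore carried the markers of their labels, but not those alone. The summed level of 6 monocyte markers was 464 to 2454 CPM in HFD and 697 to 954 CPM in control dendritic cells. In macrophages it was 152 to 197 CPM in HFD and 277 to 770 CPM in control. Of the 8 type 2 markers, Klrd1 alone averaged 494 CPM in HFD and 285 CPM in control dendritic cells. In macrophages Klrd1 averaged 7.48 CPM in HFD and 27.8 CPM in control. The part of monocyte transcripts in the dendritic cell values was not tested.

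Of 2195 distinct cell barcodes, 1082 (49.3%) were listed in more than 1 sample, 370 of them in all 6. Each barcode was counted only in the sample where it had most UMIs, which left 2114 cells after filtering. The samples held 5078891 to 6992602 UMIs in HFD and 4477100 to 5572766 in control as deposited, and 3587086 to 5708323 in HFD and 1997647 to 3874349 in control after that step. Macrophages held a median of 12105 to 13453 UMIs in HFD and 7698 to 9670 in control. Results that depend on the treatment of shared barcodes are given below with each form.

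The class II promoters share a known arrangement of boxes, the X box and the Y box, through which Ciita acts. RefSeq promoter windows (250 bases upstream and 50 downstream of the start, build GRCm38.p6) were at hand for 7 of the 10 genes, the others being H2-Ab1, Cd74 and Ciita. A search of the 250 upstream bases on both strands found the Y box letters TGATTGG in 6 of the 7, on the gene's own strand in each, and not in H2-DMa. The letters AAC, which lie within many X boxes, stood 20 to 28 bases before TGATTGG in the same 6, without overlap. This search was composed after the windows were seen. Of all 32851 promoter windows, 7.23% held TGATTGG on either strand and 0.7458% held the spaced pair. The 6 windows are shown, 5′ to 3′ on the gene's strand, because they carry the shared element of genes whose counts are compared below, and capitals mark AAC and TGATTGG.
H2-Aa, chr17:34287863-34287910, minus strand: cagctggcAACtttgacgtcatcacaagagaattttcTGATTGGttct
H2-Eb1, chr17:34305770-34305816, plus strand: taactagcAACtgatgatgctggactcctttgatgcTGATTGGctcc
H2-DMb1, chr17:34153091-34153138, plus strand: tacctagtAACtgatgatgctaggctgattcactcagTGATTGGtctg
H2-DMb2, chr17:34145120-34145167, plus strand: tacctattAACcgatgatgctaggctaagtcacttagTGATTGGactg
H2-Oa, chr17:34092297-34092344, plus strand: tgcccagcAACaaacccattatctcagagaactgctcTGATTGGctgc
H2-Ob, chr17:34238812-34238856, plus strand: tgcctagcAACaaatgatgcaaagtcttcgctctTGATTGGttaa

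Dendritic cells of both diets carried more class II transcripts than macrophages of the same samples. Of the 10 genes, 9 were higher in dendritic cells and Ciita did not pass the test (edgeR quasi-likelihood test on UMI sums with the sample as a block, Benjamini-Hochberg adjustment over 5786 genes, threshold 0.05). Over all genes tested, 9.33% were called higher and 12.8% lower in dendritic cells. The median log2 fold change was 1.37 over the 10 genes and -0.06 over all genes.

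The chains that form the surface molecule rose together. H2-Aa, the alpha chain of H2-A, had 20675, 21453 and 16896 CPM in HFD and 20470, 16915 and 17654 CPM in control dendritic cells, against 5774, 5822 and 7171 CPM in HFD and 9824, 9095 and 8171 CPM in control macrophages. All 6 dendritic cell sums lay above all 6 macrophage sums. Its log2 fold change was 1.30 ± 0.14 (SE, adjusted p = 1.03e-10). H2-Ab1, its partner beta chain, was higher by 1.44 ± 0.15 on the log2 scale (adjusted p = 7.66e-12) and H2-Eb1 by 1.30 ± 0.15 (adjusted p = 3.99e-10). The differences within samples ran from 0.75 to 2.07 for these 3 genes, and were at least 1.24 in each HFD sample.

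Cd74, the invariant chain, had 57218, 59521 and 43883 CPM in HFD and 61845, 48118 and 49879 CPM in control dendritic cells, against 16912, 16688 and 20719 CPM in HFD and 27743, 26151 and 21257 CPM in control macrophages. No macrophage sum reached a dendritic cell sum. Its log2 fold change came to 1.29 ± 0.14 (adjusted p = 2.63e-11). Of the peptide exchange genes, H2-DMa was higher by 1.49 ± 0.17 (adjusted p = 1.6e-10) and H2-DMb1 by 1.24 ± 0.16 (adjusted p = 7.45e-09).

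The gap was wider for the H2-DO genes and for H2-DMb2, at low counts. The H2-DO genes together held 30, 7 and 19 UMIs in HFD and 111, 37 and 57 UMIs in control dendritic cells. In macrophages they held 49, 26 and 51 UMIs in HFD and 146, 14 and 22 UMIs in control. H2-Oa, the alpha chain of H2-DO, had 166, 351 and 199 CPM in HFD and 190, 88.5 and 139 CPM in control dendritic cells, against 6.96, 2.73 and 8.73 CPM in HFD and 27.5, 4.54 and 5.18 CPM in control macrophages. Its log2 fold change was 4.18 ± 0.29 (adjusted p = 3.44e-18). H2-Ob, the beta chain, was higher by 3.04 ± 0.33 (adjusted p = 8.09e-11) and H2-DMb2, the second H2-DM beta gene, by 2.91 ± 0.23 (adjusted p = 1.49e-15). Confidence intervals of these 3 genes, 3.62 to 4.74, 2.38 to 3.69 and 2.46 to 3.37, lay above those of the 6 other genes called, whose highest bound was 1.82. Ciita, at 0.72 ± 0.34, missed the threshold (adjusted p = 0.124). Its whole count in dendritic cells was 13 UMIs in HFD and 25 in control.

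**Figure D1:**
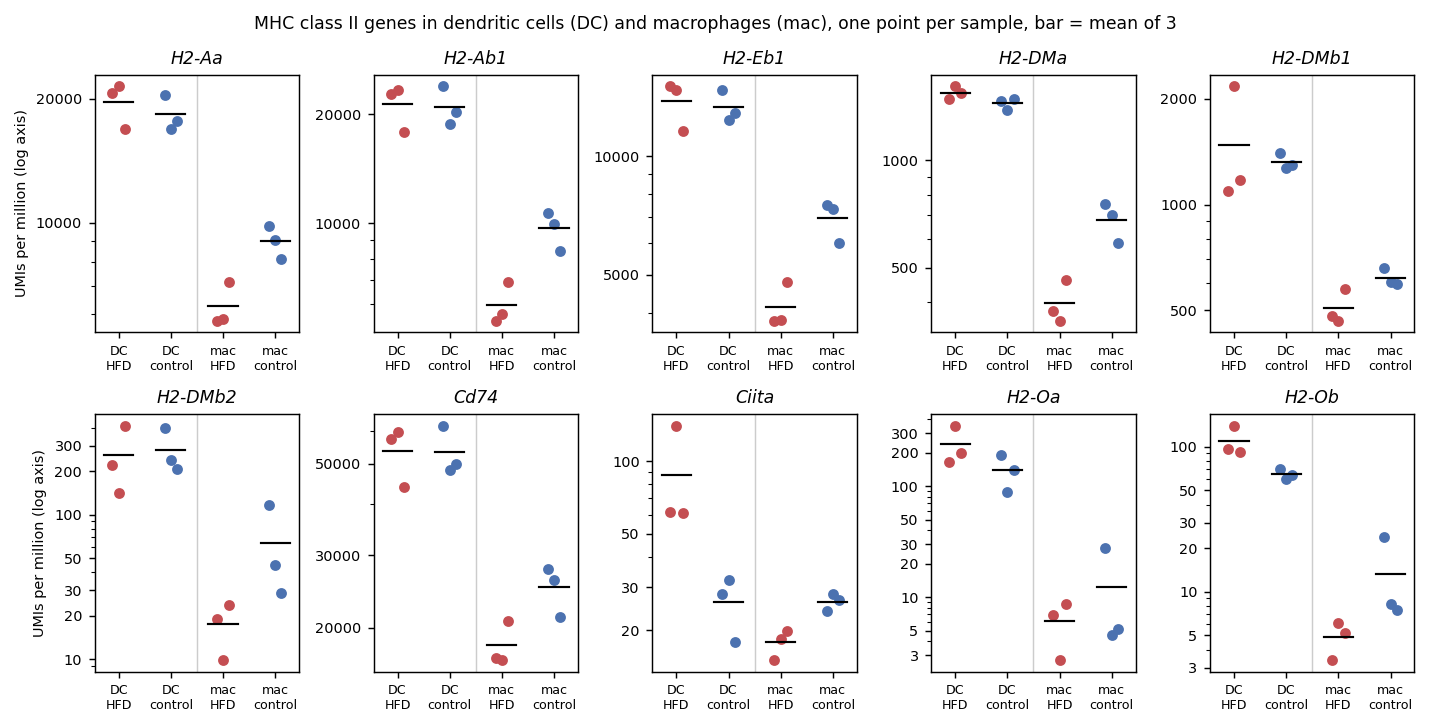
Level of each class II gene in CPM (logarithmic y axis) in dendritic cells (DC) and macrophages (mac) of HFD (red) and control (blue) samples. Each point is 1 sample and the black bar is the mean of 3. Dendritic cell sums lie above macrophage sums for 9 genes in both diets, while for Ciita the control gates overlap. In macrophages the diets overlap for H2-Oa, and the HFD points lie below the control points for the other genes (14% of all genes tested there were called lower).

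B cells, another class II cell type, entered a gate of their own (at least 5 UMIs of Cd79a, Cd79b and Ms4a1) with 10 HFD and 14 control cells. H2-DMb2 made up 82.7% of the H2-DMb1 and H2-DMb2 UMIs of the HFD and 72.8% of those of the control B cell gate, 18.8% in HFD and 18.3% in control dendritic cells, and 3.45% in HFD and 10.7% in control macrophages. Over both diets the share was 18.4% in dendritic cells (exact 95% binomial interval 16.6 to 20.2%), 6.37% in macrophages (5.90 to 6.87%) and 77.6% in the B cell gate (70.2 to 83.8%), with intervals that cover counting error only. Sample shares ran from 2.07 to 3.96% in HFD and 4.63 to 15.0% in control macrophages. In dendritic cells they ran from 6.06 to 26.0% in HFD and 13.7 to 22.0% in control. H2-DMb1 and H2-DMb2 are near-identical copies, so the division of reads between them by the counting is uncertain. The H2-DO genes gave 9.38, 12.5 and 9.27 UMIs per 100 H2-DM UMIs in HFD and 7.98, 5.15 and 6.80 in control dendritic cells, against 1.18, 1.07 and 1.31 in HFD and 3.36, 0.941 and 1.05 in control macrophages. The B cell gate had 25.5, 29.4 and 31.3 in HFD and 24.1, 20 and 16.3 in control. Of the B cell markers, Cd79a, a chain of the B cell receptor complex, was at 0 CPM in HFD and 8.04 to 53.9 CPM in control dendritic cells. In macrophages Cd79a had 5.93 to 11.6 CPM in HFD and 1.73 to 32.7 CPM in control. Its partner Cd79b had 0 to 26.3 CPM in HFD and 4.02 to 14.1 CPM in control dendritic cells, against 13.6 to 17.6 CPM in HFD and 15.0 to 25.5 CPM in control macrophages. Iglc2, an immunoglobulin light chain gene, was at 0 CPM in HFD and 0 to 21.1 CPM in control dendritic cells, and had 8.90 to 53.2 CPM in HFD and 0.576 to 87.0 CPM in control macrophages, with control 1 highest. Ms4a1 and Ebf1 reached 15.3 and 0 CPM in HFD and 12.1 and 78.6 CPM in control dendritic cells, and 4.09 and 9.53 CPM in HFD and 9.09 and 13.7 CPM in control macrophages. The part of B cell transcripts in the H2-DO and H2-DMb2 counts was not tested.

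**Figure D2:**
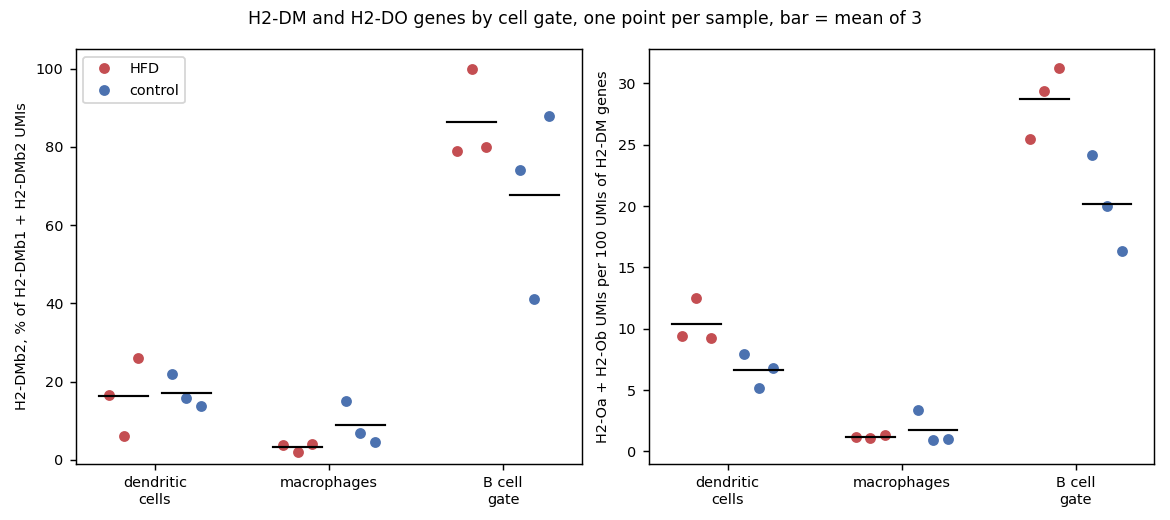
Share of H2-DMb2 among the UMIs of both H2-DM beta genes (left, percent) and UMIs of the H2-DO genes per 100 UMIs of the H2-DM genes (right), by gate, with HFD red and control blue. Each point is 1 sample and the bar is the mean of 3. The means of both measures are lowest in macrophages and highest in the B cell gate, single samples of dendritic cells and macrophages overlap in the left plot, and control 1 is the high point among macrophages at 15.0% and 3.36.

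In macrophages, class II transcripts were lower in HFD than in control. Of the 10 genes, 9 fell and H2-Oa did not pass the test (edgeR quasi-likelihood test on 6 UMI sums, 9543 genes). Over all genes tested, 14% were called lower and 10.3% higher. The median log2 fold change was -0.82 over the 10 genes and -0.04 over all genes. Markers of type 2 and migratory dendritic cells had lower levels in HFD in this gate too. Those of type 1 dendritic cells, 5 in number, did not. They summed to 206 to 218 CPM in HFD and 130 to 209 CPM in control macrophages. The type 2 markers summed to 374 to 395 CPM in HFD and 654 to 755 CPM in control macrophages, 5 migratory dendritic cell markers to 43.0 to 103 CPM in HFD and 128 to 183 CPM in control, and Cd209a averaged 44.4 ± 7.65 CPM in HFD and 165 ± 23.9 CPM in control (SD, n = 3 each).

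H2-Ab1 had 5398, 5617 and 6914 CPM in HFD macrophages, against 10705, 9988 and 8393 CPM in control macrophages. The diets did not overlap. H2-Ab1 thus fell by 0.79 ± 0.14 on the log2 scale (SE, adjusted p = 0.00371). H2-Aa fell by 0.63 ± 0.12 (adjusted p = 0.00688) and averaged 6256 ± 793 CPM in HFD and 9030 ± 828 CPM in control (SD, n = 3 each). H2-Eb1 had 3818, 3822 and 4801 CPM in HFD, against 7533, 7359 and 6023 CPM in control, and fell by 0.85 ± 0.14 (adjusted p = 0.00284). HFD 3 was the highest HFD sample and control 3 the lowest control sample for each of these chains.

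Cd74 averaged 18107 ± 2265 CPM in HFD and 25050 ± 3380 CPM in control macrophages, a log2 fold change of -0.56 ± 0.13 (adjusted p = 0.0151). HFD 3, at 20719 CPM, lay just under control 3, at 21257 CPM. H2-DMa had 377, 355 and 463 CPM in HFD, against 752, 704 and 585 CPM in control, and fell by 0.87 ± 0.15 (adjusted p = 0.00336). H2-DMb1 changed least among the genes called and averaged 509 ± 58.3 CPM in HFD and 619 ± 36.4 CPM in control (log2 fold change -0.38 ± 0.12, adjusted p = 0.0445). The coactivator Ciita had 15.0, 18.4 and 19.9 CPM in HFD, against 24.0, 28.2 and 26.5 CPM in control, and fell by 0.65 ± 0.17 (adjusted p = 0.0217).

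The low-count genes had the widest spread. H2-DMb2 had 19.1, 9.89 and 23.7 CPM in HFD, against 116, 44.5 and 28.8 CPM in control, a log2 fold change of -2.00 ± 0.49 (adjusted p = 0.017). H2-Ob had 3.39, 6.14 and 5.18 CPM in HFD, against 24.0, 8.18 and 7.49 CPM in control, a log2 fold change of -1.72 ± 0.47 (adjusted p = 0.0266). H2-Oa, at -1.30 ± 0.63 (adjusted p = 0.161), overlapped between the diets. Control 1 was the highest sample for all 3 genes. Without it the log2 fold change was -1.05 for H2-DMb2 (adjusted p = 0.0568) and -0.76 for H2-Ob (adjusted p = 0.216). Leaving out HFD 1 or HFD 2 left 4 genes called, H2-Aa, H2-Ab1, H2-Eb1 and H2-DMa, and these 4 were called without any other single sample too.

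**Figure D3:**
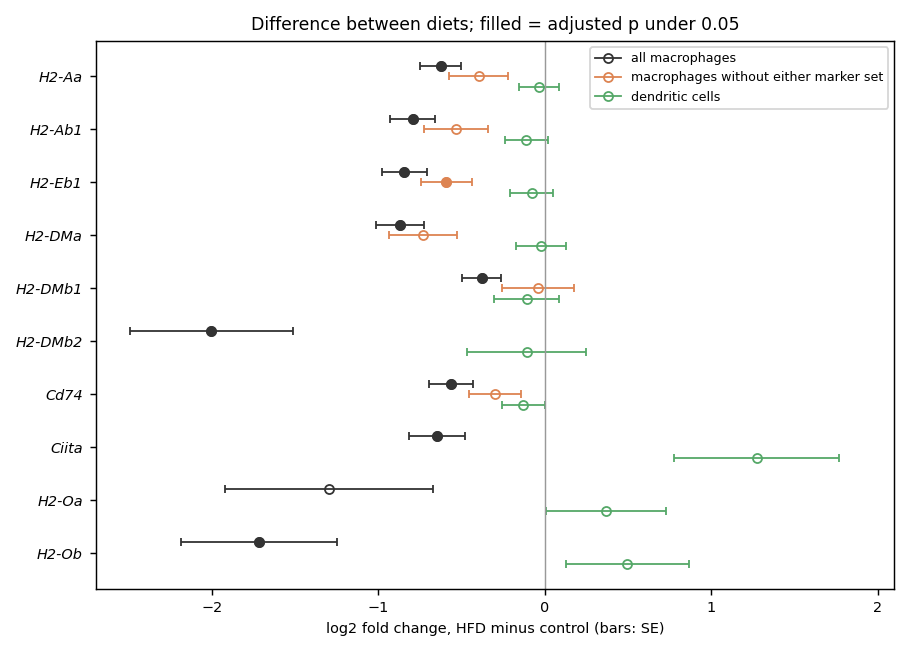
Log2 fold change of each class II gene, HFD minus control, in all macrophages (black), macrophages without lipid-associated or resident markers (orange) and dendritic cells (green), with bars of 1 SE. Filled points had an adjusted p under 0.05. The macrophage points run from -2.00 to -0.38, and the dendritic cell points of the 7 genes other than Ciita, H2-Oa and H2-Ob lie between -0.13 and -0.02. Genes with too few counts for the test have no orange point.

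The macrophage difference depended on which barcodes were counted. Among the 478 HFD and 347 control macrophages whose barcode several samples list, 9 of the 10 genes were again called lower, with a median log2 fold change of -0.95. Over all 9246 genes tested in that form, 1077 were called lower and 746 higher. Among the 295 HFD and 206 control macrophages whose barcode only 1 sample lists, 0 of 7 genes tested were called by edgeR. Over all 4361 genes tested there, 524 were called lower and 396 higher. The median of the 7 class II genes was -0.09, and H2-DMb1 stood at 0.40 (adjusted p = 0.0518). H2-Eb1 had -0.32 there (adjusted p = 0.0576) and Cd74 -0.03 (adjusted p = 0.89). Cd74 averaged 24919 ± 1729 CPM in HFD and 24247 ± 3141 CPM in control in that form (SD, n = 3 each). These forms also differed in depth and composition. Macrophages whose barcode only 1 sample lists held a median of 8158, 5012 and 6184 UMIs in HFD and 5298, 4169 and 4402 in control, against 19384, 14781 and 16293 in HFD and 13638, 9657 and 10644 in control for those that several samples list. Lipid-associated cells, defined below, made up 74.0, 57.9 and 52.3% of the macrophages in HFD and 0, 2.56 and 19.2% in control with barcodes of 1 sample, against 97.4, 87.6 and 91.4% in HFD and 5.13, 19.8 and 59.1% in control with barcodes of several. Monocyte markers, 6 in number, summed to 152 to 197 CPM in HFD and 277 to 770 CPM in control macrophages of the main form. The part of depth, barcode sharing, lipid-associated cells, and monocyte and dendritic cell transcripts in the result was not tested.

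Class II transcripts varied from cell to cell within every sample. They took a median of 2.94, 2.95 and 3.96% of a macrophage's UMIs in HFD and 5.09, 5.15 and 4.06% in control. The medians did not overlap and averaged 3.28 ± 0.58% in HFD and 4.76 ± 0.61% in control (SD, n = 3 each). An exact two-sided permutation test over the 20 arrangements of the samples gave p = 0.1, the smallest p that 3 against 3 allows. The 10th percentile was 0.294 to 0.488% in HFD and 0.914 to 1.24% in control, and the 90th percentile was 7.85 to 10.2% in HFD and 9.24 to 11.4% in control. The 10th percentiles lay near the background of the fibroblast gate, whose 90th percentile was 0.311, 0.350 and 0.477% in HFD and 1.15, 0.792 and 0.632% in control, so no diet difference is read from them. With every cell thinned to 3000 UMIs the averages were 3.28% in HFD and 4.83% in control (exact p = 0.1). With only the barcodes that 1 sample lists they were 4.24% in HFD and 3.90% in control (exact p = 0.6), and with only those that several samples list 2.90% in HFD and 5.10% in control (exact p = 0.1).

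A background lay under these shares. Cells gated as fibroblasts, which carry neither antigen of the sort and should lack these genes, held a median class II share of 0.227 to 0.373% in HFD (207 cells) and 0.564 to 0.848% in control (19 cells). Their median depths were 5641 to 7539 UMIs in HFD and 6223 to 7490 UMIs in control. The median shares averaged 0.288 ± 0.076% in HFD and 0.732 ± 0.149% in control (SD, n = 3 each) and were higher in every control sample than in any HFD sample. The same gate carried macrophage markers at a summed 5003 to 5633 CPM in HFD and 1172 to 4033 CPM in control, and lipid-associated markers at 2407 to 2521 CPM in HFD and 931 to 1724 CPM in control. Whether this background is free RNA or mixed cells, and its part in the macrophage difference, was not tested. Of macrophages, 12.7, 10.1 and 9.56% in HFD and 11.6, 1.67 and 4.37% in control lay at or below the 90th percentile of their own sample's fibroblast gate. After thinning to 3000 UMIs, H2-DMb2 was found in 1.52 to 4.47% of HFD and 5.88 to 17.2% of control macrophages. In the fibroblast gate it was found in 0 to 1.37% of cells in HFD and 0 to 12.5% in control. The control ranges overlap, but the 12.5% was control 1 alone, with 8 thinned cells. H2-Oa was found in 0 to 1.88% of HFD and 0 to 5.02% of control macrophages, which overlaps its range of 0 to 1.89% in the HFD fibroblast gate. The control fibroblast gate held 9, 2 and 8 cells before thinning, too few to set a background for H2-DMb2 or H2-Oa.

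**Figure D4:**
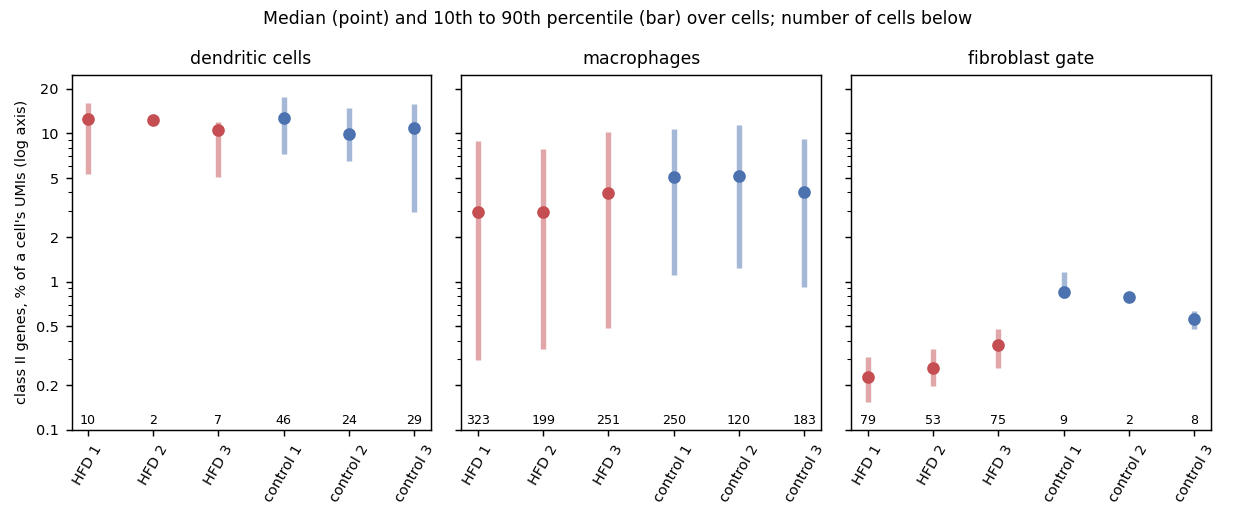
Share of a cell's UMIs that came from the 10 class II genes (percent, logarithmic y axis) in dendritic cells, macrophages and the fibroblast gate of each sample, with HFD red and control blue. Points are medians over cells, bars run from the 10th to the 90th percentile, and the number of cells stands at the bottom. Macrophages span more than dendritic cells. The medians of the fibroblast gate lie between 0.227 and 0.848%, and its bars between 0.153% (HFD 1) and 1.15% (control 1).

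In dendritic cells, no class II gene passed the test between the diets. Of the 10 genes, 0 were called among 2097 genes tested with edgeR, 1 (Ciita) had an unadjusted p under 0.05, and DESeq2 also called 0. Of all 2097 genes, 260 had an unadjusted p under 0.05 with edgeR. Over all genes, 0.191% were called higher and 1.43% lower. The HFD sums rest on 10, 2 and 7 cells. The intervals below do not allow for the small number of samples. They are narrower than the test and set no bound on what could be missed. H2-Aa averaged 19674 ± 2438 CPM in HFD and 18346 ± 1876 CPM in control dendritic cells (SD, n = 3 each). Its fitted log2 fold change, with TMM scaling, was -0.03 (nominal 95% interval -0.27 to 0.20), of the other sign than these means. The median over the class II genes was -0.06 in that fit and 0.07 with total UMIs only, so the direction depended on the scaling. Cd74 stood at -0.13 (interval -0.38 to 0.13) and H2-DMa at -0.02 (-0.31 to 0.27). For H2-DMb2, with 54 UMIs in HFD and 286 in control, the interval ran from -0.81 to 0.59. Ciita had 61.3, 140 and 61.2 CPM in HFD, against 28.1, 32.2 and 17.9 CPM in control, a log2 fold change of 1.27 ± 0.50 (adjusted p = 0.278 by edgeR). Migratory dendritic cell markers, 5 in number, summed to 229 to 280 CPM in HFD and 492 to 1532 CPM in control dendritic cells, and 4 neutrophil markers to 0 to 1716 CPM in HFD and 14.3 to 56.3 CPM in control. Their part in these values was not tested. The median class II share of a dendritic cell's UMIs was 12.6, 12.3 and 10.6% in HFD and 12.8, 9.87 and 10.9% in control (exact two-sided permutation p = 0.7).

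Whether the diet difference itself differed between dendritic cells and macrophages was tested as an interaction over all 12 sums. Only H2-DMb2 was called, with a diet difference higher by 1.34 ± 0.37 in dendritic cells on the log2 scale (adjusted p = 0.0292 by edgeR), against 0.511% of 6853 genes called higher and 0.7% called lower. That call was lost without each of the samples other than control 3, under DESeq2 (adjusted p = 0.267) and with only the barcodes that 1 sample lists (adjusted p = 0.514). The values for H2-Aa and Cd74 were 0.21 ± 0.28 and 0.04 ± 0.27, and those for Ciita and H2-Ob 1.73 ± 0.65 (adjusted p = 0.224) and 1.90 ± 0.62 (adjusted p = 0.109). This fit shifted the median of all genes to -0.25, and scaling by total UMIs, with a median of 0.00, called 7 of the 10 genes higher. Over all 6853 genes, that scaling called 87 higher and 46 lower. In simulated data the edgeR interaction test found 2% of 2-fold and 31% of 4-fold changes, so genes not called may still differ.

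Macrophages were divided by marker genes of known subtypes of fat tissue. Lipid-associated macrophages had at least 2 UMIs of Gpnmb and Mmp12 together. Resident macrophages were those of the remainder with at least 2 UMIs of Cd209b, Cd209d, Cd209f, Cd209g and Cd163 together. The summed level of 6 lipid-associated markers was 6046 to 8621 CPM in HFD and 621 to 3852 CPM in control macrophages, and that of 7 resident markers 338 to 446 CPM in HFD and 2332 to 2822 CPM in control. Lipid-associated cells made up 85.1, 81.9 and 77.7% of macrophages in HFD and 3.20, 14.2 and 43.2% in control. Resident cells numbered 6, 7 and 11 in HFD and 215, 78 and 81 in control. Macrophages with neither set numbered 42, 29 and 45 in HFD and 27, 25 and 23 in control. The subsets were cut at raw UMI counts and differed in depth. Lipid-associated cells held a median of 13307, 14491 and 14657 UMIs in HFD and 16160, 16134 and 10920 in control. Cells with neither set held 6778, 7822 and 6285 in HFD and 8625, 8588 and 5826 in control. The part of depth in the subset comparisons below was not tested.

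Class II genes were lower in lipid-associated macrophages than in macrophages of the same samples with neither set. All 6 genes with enough counts fell (edgeR, 5 samples, since control 1 had under 10 lipid-associated cells), against 4.84% of 3370 genes called lower and 4.57% called higher. Cd74 had 15967, 15568 and 19493 CPM in HFD and 19468 and 18682 CPM in the control 2 and 3 lipid-associated cells, against 32198, 29569 and 34991 CPM in HFD and 29698 and 40512 CPM in control cells with neither set. No lipid-associated sum reached a sum of the other subset. Cd74 fell by 0.97 ± 0.09 on the log2 scale (SE, adjusted p = 4.78e-06). H2-Aa fell by 0.94 ± 0.10 (adjusted p = 8.48e-06), H2-Eb1 by 0.91 ± 0.10 (adjusted p = 1.39e-05) and H2-Ab1 by 0.82 ± 0.11 (adjusted p = 8.91e-05). H2-DMa and H2-DMb1 fell by 0.72 ± 0.12 and 0.71 ± 0.12 (adjusted p = 0.000886 and 0.000794). These 6 calls were made in every setting tried, including the barcodes that only 1 sample lists.

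Resident macrophages were also lower than cells with neither set. Of 8 genes tested over 4 samples, 5 fell (HFD 3 and the control samples, the others having under 10 resident cells), against 1.32% of 3189 genes called lower and 2.38% called higher. H2-Eb1 had 2885 CPM in HFD 3 and 7218, 7686 and 5606 CPM in control resident cells, against 7711 CPM in HFD 3 and 10581, 8235 and 11278 CPM in control cells with neither set, a log2 fold change of -0.78 ± 0.17 (adjusted p = 0.0133). Cd74 fell by 0.85 ± 0.19 (adjusted p = 0.0161), H2-Aa by 0.74 ± 0.17, H2-DMa by 0.72 ± 0.17 and H2-Ab1 by 0.72 ± 0.19. H2-DMb1 at -0.58 ± 0.18 (adjusted p = 0.0988), Ciita at -0.94 ± 0.46 and H2-DMb2 at 0.01 ± 0.35 did not pass. The number called was 0 without control 3 or HFD 3, and 1 without control 1. The few resident cells of the HFD samples held a median class II share of 1.96, 1.39 and 1.54%, against 4.88, 5.15 and 3.07% in control resident cells, a difference that was not tested.

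In macrophages with neither marker set, most class II genes did not pass the test between the diets. Of 6 genes tested, H2-Eb1 alone fell, by 0.59 ± 0.16 on the log2 scale (adjusted p = 0.0495 by edgeR), against 2.97% of 2858 genes called lower and 2.06% called higher. It had 6807, 7195 and 7711 CPM in HFD, against 10581, 8235 and 11278 CPM in control, without overlap. The call was lost without any 1 sample other than control 2, and with only the barcodes that 1 sample lists. H2-DMa stood at -0.73 ± 0.20 (adjusted p = 0.0588), H2-Ab1 at -0.54 ± 0.19 (adjusted p = 0.13) and Cd74 at -0.30 ± 0.16 (adjusted p = 0.295). H2-DMb1 stood at -0.04 ± 0.21. The median class II share per cell was 6.28, 6.44 and 6.68% in HFD and 8.16, 6.44 and 8.50% in control cells of this subset. In lipid-associated cells it was 2.55, 2.45 and 3.72% in HFD and 5.68, 4.77 and 4.04% in control, with 8 cells in control 1.

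**Figure D5:**
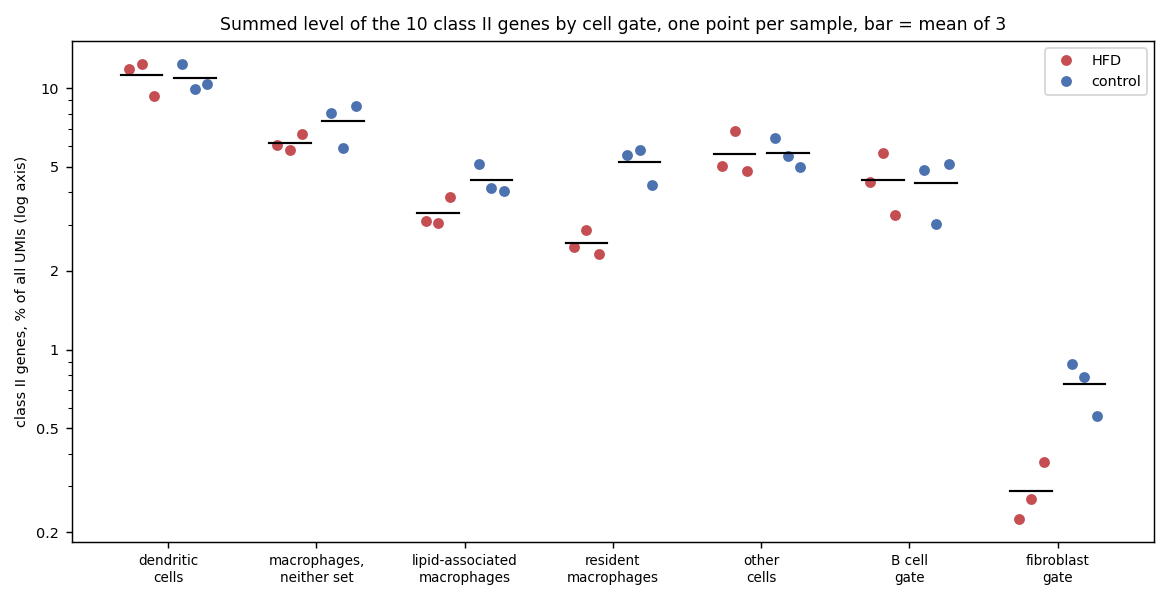
Share of all UMIs of a gate that came from the 10 class II genes (percent, logarithmic y axis), with HFD red and control blue. Each point is 1 sample and the bar is the mean of 3. Dendritic cells are highest at 9.37 to 12.4%, macrophages with neither marker set lie at 5.82 to 8.56%, and the fibroblast gate at 0.225 to 0.881% is the background.

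Of 24 other genes of the pathway found in the files, 23 were tested in macrophages, 3 rose and 3 fell in HFD, against 10.3% of all genes called higher and 14% called lower, with a median log2 fold change of -0.10. These shares are near those of all genes, so the values below describe single genes. Irf4, a transcription factor of alternatively activated macrophages and dendritic cells, averaged 9.15 ± 1.17 CPM in HFD and 34.0 ± 1.69 CPM in control (SD, n = 3 each) and fell by 2.01 ± 0.16 (adjusted p = 0.00011 by edgeR). The costimulatory ligands Cd86 and Cd80 were called lower, Cd86 at 51.8 ± 1.48 CPM in HFD, against 115.9 ± 14.2 CPM in control (adjusted p = 0.000272), and Cd80 at 4.32 ± 0.20 CPM in HFD, against 12.2 ± 4.19 CPM in control (adjusted p = 0.00678). Of the lysosomal proteases, Ctss, which degrades Cd74, averaged 3425 ± 146 CPM in HFD and 2092 ± 497 CPM in control (log2 fold change 0.62 ± 0.14, adjusted p = 0.0131), and Lgmn, an asparaginyl endopeptidase, 1705 ± 138 CPM in HFD and 1072 ± 244 CPM in control (0.58 ± 0.15, adjusted p = 0.0188). Ifngr2, a chain of the interferon gamma receptor, averaged 104 ± 6.89 CPM in HFD and 63.1 ± 5.65 CPM in control (adjusted p = 0.00388). The X and Y box binding genes Rfx5, Rfxap, Rfxank, Nfya, Nfyb, Nfyc and Creb1 were not called. Of these, Rfxap averaged 30.2 ± 3.50 CPM in HFD and 20.8 ± 5.69 CPM in control (log2 fold change 0.49 ± 0.19, adjusted p = 0.0896 by edgeR). In dendritic cells, 10 of these 24 genes were tested between the diets and 0 were called.

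The MHC class I pathway presents peptides from the cell's own proteins. Of 12 genes of this pathway (H2 genes, B2m, and transporter and chaperone genes), 3 fell and 0 rose in HFD macrophages. Over all genes, 14% were called lower and 10.3% higher there. The median log2 fold change of the 12 genes was -0.23. These were H2-T23 at -0.67 ± 0.18, H2-K1 at -0.60 ± 0.18 and the chaperone Canx at -0.32 ± 0.09. B2m, the shared light chain, averaged 3558 ± 448 CPM in HFD and 3634 ± 649 CPM in control. The H2 genes have near copies, so their counting is uncertain. In dendritic cells 11 of these 12 genes were tested between the diets and 0 were called.

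The genes whose levels most resembled the class II genes were ranked by Pearson r of log2(CPM + 1) with the mean of the members of at least 20 CPM, among genes of at least 20 CPM. That mean held all 10 members over both gates, and 8 over macrophages, without H2-Oa and H2-Ob. Over the 12 sums of both gates they were Napsa, Rpl21, Lsp1, Itgb7, Klrd1, Sub1, Traf1 and Cd209a, with r of 0.981 to 0.996 among 4505 genes. Cd209a defined a gate and Klrd1 was a marker of it, and all 12 sums share 6 libraries. Over the 6 macrophage sums they were Herpud1, Uvrag, Hpse, Stk17b, Ly6e, Tmem51, Tmem176a and Plbd1, with r of 0.986 to 0.995 among 4675 genes. Herpud1, a gene of the unfolded protein response, averaged 113 ± 21.5 CPM in HFD and 210 ± 49.9 CPM in control macrophages. Set against this mean of 8, r of the 10 genes in macrophages was lowest for H2-Oa at 0.620 and for Ciita at 0.824, and highest for H2-DMa at 0.994. That mean includes Ciita and H2-DMa themselves but not H2-Oa or H2-Ob, so these r values are not directly comparable.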

How the data were processed

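The authors deposited whole-number UMI counts per gene and cell barcode for 6 samples, without normalization, and Cell Ranger, Seurat 2.4 and the build mm9 are named, without a role, in the submitters' processing notes. Cell calling and filters on cells are not given in the sources used here. Promoter windows come from RefSeq (GRCm38.p6), not the build of the counts.

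Each barcode was kept in the sample where it had most UMIs. Cells needed at least 200 genes and at most 10% mitochondrial UMIs, which removed 81 of 2195. No doublet caller was run. Counts were summed per sample and gate and tested with edgeR 4.0.16 (quasi-likelihood, TMM, filterByExpr) under R 4.3.3, with adjustment over all genes tested and a threshold of 0.05. DESeq2 1.42.0, other scalings, filters, gates, barcode forms and left-out samples were alternatives. Each edgeR comparison, but not DESeq2 or the permutation tests, was tried on simulated data. There the diet test in dendritic cells found 28% of 2-fold and 84% of 4-fold changes. Intervals of fold changes are nominally 95%, from the SE and the normal distribution. They do not allow for the small number of samples, so they are narrower than the tests. A gate entered a subset test in samples with at least 10 cells.

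The members, lists and tests were chosen with earlier results of these data known. Named genes are the 10 members, up to 6 of the pathway list with the smallest p in macrophages, called class I pathway genes, and the genes most like the members. Outside that rule, values are also given for Rfxap and for the pathway genes called between dendritic cells and macrophages. B2m was added after its values were seen, and not all listed genes are reported. One of the B cell markers is not reported here.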

Additional observations from a re-analysis of the deposited data

Results flagged for a closer look

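H2-DMb1 stood apart in 1 sample. Its log2(CPM + 1) in dendritic cells minus that in macrophages was 2.22 in HFD 2, while the other 5 samples lay between 1.03 and 1.18. The gap to the nearest sample exceeded Dixon's 95% critical value for 6 samples. The dendritic cells of HFD 2 were 2 in number, and chance flags about 1 in 20 groups tested this way.

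For H2-DMb2 the HFD minus control log2 fold change in dendritic cells exceeded that in macrophages by 1.34 (edgeR interaction test, adjusted p = 0.0292). H2-DMb2 averaged 257 ± 140 CPM in HFD and 280 ± 102 CPM in control dendritic cells, against 17.6 ± 7.04 CPM in HFD and 63.2 ± 46.6 CPM in control macrophages (SD, n = 3 each). Without control 1, the highest macrophage sample, the value was 0.96 (adjusted p = 0.603).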

How the results depend on the processing

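In macrophages 9 of 10 class II genes were called lower in HFD. The number was 7 with every entry as deposited, with a median log2 fold change of -0.61. It was 0 with only the barcodes that 1 sample lists, where H2-DMb1 turned to 0.40, and 4 to 9 when 1 sample was left out. The fit with the replicate block called 6, but samples of the same number did not deviate together (r = -0.16, -0.01 and -0.16), so the numbers do not pair them. The block called 0 in dendritic cells, and in macrophages with neither marker set H2-DMa (adjusted p = 0.0368) in place of H2-Eb1 (adjusted p = 0.0792). The difference in median class II share per macrophage was -1.48 percentage points, -0.71 with every entry as deposited, 0.34 with only the barcodes that 1 sample lists, -2.19 with only those that several samples list (both barcode forms chosen after seeing the data), and -1.83 to -1.29 with 1 sample left out. For dendritic cells it was 0.66, -1.45 with every entry as deposited, where the samples share barcodes, and 0.01 to 1.45 with 1 sample left out. For the interaction, 1 call became 7 with total UMIs, 2 without cells carrying markers of other types, and 0 with no filter on low counts, DESeq2, only the barcodes that 1 sample lists, a C1q minimum of 40 or a Cd209a minimum of 5 (0 to 2 with 1 sample left out). In macrophages with neither marker set, 1 call became 0 with total UMIs, every entry as deposited, only the barcodes that 1 sample lists or no filter on cells. It became 2 with no filter on low counts, DESeq2, a C1q minimum of 40 or cells with markers of other types left out, and 3 with marker sets of at least 4 UMIs (0 to 3 with 1 sample left out). For resident macrophages, 5 calls became 2 with only the barcodes that 1 sample lists or a C1q minimum of 40, and 0 with a C1q minimum of 10 (0 to 6 with 1 sample left out). Leaving out 1 sample gave 9 to 10 calls for dendritic cells minus macrophages, 6 for lipid-associated macrophages and 0 for the diet in dendritic cells. The cause of these changes was not tested.

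The number of genes tested differed between settings in every comparison, so the counts here are not changes in the share called. Genes called over the whole table numbered 2318 of 9543 tested in macrophages and 1479 of 9962 as deposited. With only the barcodes that 1 sample lists they numbered 920 of 4361. Without HFD 1 and HFD 2 they numbered 1184 of 9861 and 1472 of 9870. In dendritic cells they numbered 34 of 2097, and ran from 10 of 3016 to 141 of 12235 under the settings tried. The number called was 1278 of 5786 for dendritic cells minus macrophages (472 to 2482 under the settings tried) and 83 of 6853 for the interaction (31 to 143). It was 144 of 2858 between the diets in macrophages with neither marker set (7 to 561). For lipid-associated macrophages it was 317 of 3370 (30 to 1141), and for resident macrophages 118 of 3189 (56 to 1047). The HFD dendritic cells numbered 10, 2 and 7, so a missed threshold there does not show equal levels.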

Other observations

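Cells in no gate, which the labels do not name further, numbered 119 in HFD and 301 in control. Class II genes made up 5.04, 6.89 and 4.82% of their UMIs in HFD and 6.46, 5.51 and 4.99% in control, and the lowest 10th and highest 90th percentile over cells of a sample were 0.211 and 13.2% in HFD and 0.679 and 10.1% in control. H2-DMb2 made up 19.5% of the H2-DM beta UMIs of these cells in HFD and 20.2% in control. Their summed level of 5 migratory dendritic cell markers was 371 to 2674 CPM in HFD and 1025 to 1864 CPM in control.

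In dendritic cells compared with macrophages of the same samples, Ctsl (-3.09 ± 0.20), Lgmn (-2.14 ± 0.18), Irf8 (-1.29 ± 0.29) and Ctss (-0.69 ± 0.17) were lower on the log2 scale. Cd80 (1.37 ± 0.42), March1 (0.89 ± 0.31), Irf4 (0.89 ± 0.29), Ifi30 (0.81 ± 0.17) and Ifngr1 (0.69 ± 0.18) were higher. These 9 of 20 pathway genes tested passed the adjusted threshold with edgeR, 5 higher and 4 lower, against 9.33% of all genes called higher and 12.8% called lower. Ctsl and Lgmn are lysosomal proteases, and March1 is the ubiquitin ligase that removes class II molecules from the surface.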
